A study of Homo sapiens with 6 samples.

Results

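The 9 genes described here encode the enzymes that make serine from a glycolytic intermediate and those that pass its carbon to folate. They were chosen by name as PHGDH, PSAT1 and PSPH of serine synthesis, SHMT1 and MTHFD1 of the cytosolic folate pathway, and SHMT2, MTHFD2, MTHFD1L and ALDH1L2 of the mitochondrial one. Each of the 9 had 1 entry among the 53826 of the deposited expression tables. RNA was sequenced from 2 established human pancreatic ductal adenocarcinoma cell lines, PK-1 and Panc-1. Each line gave a control library, a library after 24 h with RARγi-1 and a library after 24 h with RARγi-2, so that there were 6 libraries and 1 library per condition. RARγi-1 (LY2955303) and RARγi-2 (MM11253) are small-molecule antagonists of retinoic acid receptor gamma, a nuclear receptor for retinoic acid. The labels name no genetic change in either line. The doses used for the RNA and the vehicle of the controls were not given in the sources used here. Both RARγi-2 libraries carry a treatment entry that reads RARγi-1, and they were grouped here by their titles.

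Serine is built from 3-phosphoglycerate by PHGDH, PSAT1 and PSPH in turn. Serine hydroxymethyltransferases then move its side-chain carbon onto tetrahydrofolate, giving glycine and a one-carbon unit that is used to make purines, thymidylate and methionine. The steps that follow run in parallel in the cytosol and in the mitochondrion, and in proliferating cells the mitochondrial enzymes oxidise the unit to formate, which the cytosolic enzyme MTHFD1 takes up again. Several genes of the pathway are known targets of ATF4, the transcription factor of the integrated stress response.

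The medians of the cytosolic and of the mitochondrial enzymes had opposite signs in all 4 comparisons of a treated library with the control of its line. Cytosolic SHMT1 and MTHFD1 fell more than 2-fold in every treated library. Mitochondrial MTHFD2 rose more than 2-fold in every treated library, and SHMT2 was higher by 1.30-fold to 2.75-fold. MTHFD1L passed 2-fold with both antagonists in Panc-1 and with neither in PK-1. ALDH1L2 passed 2-fold with both antagonists in Panc-1 and was too low in PK-1 for a fold change to be given. Of the serine synthesis genes, PSAT1 rose more than 2-fold in PK-1 and was higher by 1.69-fold to 1.90-fold in Panc-1, whereas PHGDH and PSPH did not pass 2-fold in any comparison.

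Levels are given as TPM, transcript abundances scaled by transcript length and library total, so that levels of different genes can be set side by side. Values of 1 TPM or less were deposited as 1 TPM, called the floor here. Fold changes are ratios of TPM + 1 in the treated library to TPM + 1 in the control library, mostly given as log2. With no replicates no test was made and no error of a single value can be given, and TPM does not keep the sequencing depth. Each fold change was therefore set beside a spread, the robust standard deviation over all expressed entries of the log2 difference of both treated libraries of a line from each other, which was 0.413 in PK-1 and 0.321 in Panc-1. That spread also holds any true difference between the antagonists. Both comparisons of a line share 1 control library, so a value particular to that control enters both. In cultures measured in bulk, fewer cells with a transcript and less of it in each cell cannot be told apart.

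The libraries were alike in coverage of the annotation, with 13149 to 13652 entries above the floor in each. RARG, the gene of the antagonised receptor, was at 51.1, 37.5 and 23.5 TPM in the PK-1 control, RARγi-1 and RARγi-2 libraries and at 30.1, 8.83 and 3.27 TPM in those of Panc-1. The epithelial keratins KRT8, KRT18 and KRT19 were present in all 6 libraries and fell more than 2-fold in both treated Panc-1 libraries, with smaller log2 changes of -0.11 to -0.92 in PK-1. E-cadherin (CDH1) was not above the floor in any Panc-1 library and was at 170.1, 270.2 and 385 TPM in PK-1. EPCAM, the fifth epithelial marker, was at 498 to 578 TPM in PK-1 and at 13.4, 19.4 and 9.19 TPM in Panc-1. PTPRC, PECAM1 and ALB, markers of leukocytes, endothelium and hepatocytes, were at the floor in all 6. The part of the keratin difference in the Panc-1 results was not tested.

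PHGDH, phosphoglycerate dehydrogenase, catalyses the first and committed step of serine synthesis. Its level was 176, 246 and 182 TPM in the PK-1 control, RARγi-1 and RARγi-2 libraries and 217, 331 and 240 TPM in the Panc-1 libraries in the same order. The RARγi-1 library was the highest of the 3 in both lines. The log2 fold changes were 0.49 and 0.61 with RARγi-1, above the spread of the line, and 0.05 and 0.15 with RARγi-2, within it. The first of these became 0.35, within the PK-1 spread, when libraries were rescaled by the median of ratios. PHGDH lies on chromosome 1 (chr1:119711934-119744215, forward strand, GRCh38.p14).

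PSAT1, the aminotransferase of the second step, had the largest response of the serine synthesis genes. It was at 29.8 TPM in the PK-1 control and at 113 and 83.2 TPM in the RARγi-1 and RARγi-2 libraries. In Panc-1 it was at 157 TPM in the control and at 299 and 265 TPM with RARγi-1 and RARγi-2. All 4 treated libraries were above the control of their line. On the log2 scale the fold changes in PK-1 were 1.90 and 1.45. It was 0.93 and 0.76 in Panc-1, where the control already held more PSAT1 than the PK-1 library with either antagonist.

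PSPH, the phosphatase of the last step, was at 44.9, 53.3 and 36.2 TPM in PK-1 and at 67.3, 105 and 95.8 TPM in Panc-1. Its log2 fold changes in PK-1, 0.24 and -0.31, had opposite signs and lay within the spread. In Panc-1 they were 0.64 and 0.50, above the spread of that line.

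SHMT1 is the cytosolic serine hydroxymethyltransferase. In PK-1 it was at 71.1 TPM in the control, and at 18.4 and 9.81 TPM after RARγi-1 and RARγi-2. In Panc-1 the levels were 29.4, 13.7 and 7.83 TPM. Both treated libraries of each line were below the control, and the RARγi-2 library was the lower of the pair. Relative to the control the log2 change was -1.89 and -2.74 in PK-1, against -1.05 and -1.79 in Panc-1.

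MTHFD1, the cytosolic trifunctional enzyme that ligates formate to tetrahydrofolate and interconverts the folates used for purine and thymidylate synthesis, had a mean log2 fold change of -1.89 over the 4 comparisons, next to -1.87 for SHMT1. It stood at 190.1, 44.1 and 24.8 TPM in the PK-1 control, RARγi-1 and RARγi-2 libraries. In Panc-1 the levels were 117, 52.5 and 41.7 TPM. As with SHMT1, both treated libraries of each line were below the control. The log2 fold change in PK-1 was -2.08 and -2.89, where 0.568% and 1.11% of the expressed entries had a lower one. In Panc-1 it was -1.14 and -1.46, with 5.50% and 7.08% of entries lower. The 250 bases before the annotated start of MTHFD1 hold an E-box, CACGTG, the letters bound by MYC and related factors. It is printed here because MTHFD1 fell in every comparison, with the E-box in capitals, from RefSeq GRCh38.p14, forward strand, chr14:64388323-64388352, just upstream of the gene.
MTHFD1: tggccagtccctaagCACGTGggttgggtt
Searched on both strands, CACGTG was present before an annotated start in 7.73% of 27305 genes in the promoter table and in 11.3% of the 9786 expressed ones. It was present in 2 of the 6 members with a promoter in the table, MTHFD1 and MTHFD1L, whose fold changes had opposite signs.

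SHMT2 is the mitochondrial serine hydroxymethyltransferase. It was at 205 TPM in the PK-1 control, and at 374 and 566 TPM after RARγi-1 and RARγi-2. In Panc-1 the levels were 132, 172 and 252 TPM. The order was control, RARγi-1, RARγi-2 in both lines, the reverse of that of SHMT1. On the log2 scale SHMT2 was higher by 0.86 and 1.46 in PK-1, against 0.38 and 0.93 in Panc-1, so that only PK-1 with RARγi-2 passed 2-fold. The smallest, 0.38 in Panc-1 with RARγi-1, became 0.29 and fell within the spread when libraries were rescaled by the median of ratios.

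MTHFD2, the mitochondrial dehydrogenase and cyclohydrolase that oxidises the one-carbon unit, had a mean log2 fold change of 1.35 over the 4 comparisons. It was at 199, 483 and 550 TPM in the PK-1 control, RARγi-1 and RARγi-2 libraries and at 217, 495 and 606 TPM in those of Panc-1. The levels were close between the lines in each condition, and the treated libraries stood well above the controls. The log2 fold changes were 1.28, 1.46, 1.18 and 1.476 in the order PK-1 RARγi-1, PK-1 RARγi-2, Panc-1 RARγi-1 and Panc-1 RARγi-2. Between 4.31% and 7.06% of expressed entries had a higher value in the same comparison. MTHFD2 and PHGDH stood level in the Panc-1 control, and of that pair MTHFD2 alone passed 2-fold there.

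MTHFD1L, the mitochondrial formate-tetrahydrofolate ligase that releases formate, was at 20.6, 28.9 and 25.4 TPM in PK-1 and at 38.6, 91.1 and 96.2 TPM in Panc-1. In PK-1 its log2 fold changes were 0.47 and 0.29, the second within the spread, and the first became 0.33, within the spread too, when rescaled by the median of ratios. In Panc-1 they were 1.22 and 1.30, both past 2-fold. MTHFD1L was the one member with the core of the C/EBP-ATF response element, TGATGNAA, before an annotated start. The core was present before 2 of its 4 annotated starts, 129 and 90 bases upstream. It is shown beside the same core from ASNS and CHAC1, the 2 of 5 listed ATF4 targets outside the pathway that had it (TRIB3, SESN2 and PCK2 did not). The core is in capitals, and each stretch is printed along the strand of its gene in RefSeq GRCh38.p14. That is the forward strand for MTHFD1L and CHAC1 and the reverse strand for ASNS. The stretches are chr6:150866346-150866375, chr7:97872458-97872487 and chr15:40953251-40953280. In CHAC1 the core lies on the strand opposite to the gene and reads TTNCATCA in the printed letters.
MTHFD1L: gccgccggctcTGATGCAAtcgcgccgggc
ASNS: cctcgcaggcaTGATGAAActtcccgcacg
CHAC1: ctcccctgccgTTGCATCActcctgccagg
Searched on both strands, the core was present in 3.89% of the 27305 genes and in 2.28% of the expressed ones. PHGDH, PSAT1, SHMT1, MTHFD1 and MTHFD2 were the members with a promoter in the table but without the core in those 250 bases, and PSPH, SHMT2 and ALDH1L2 had no promoter there. A match in these letters is a description of the window and does not show binding.

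ALDH1L2, the mitochondrial formyltetrahydrofolate dehydrogenase, was expressed in Panc-1 and near the floor in PK-1. In PK-1 it was at the floor in the control and with RARγi-1 and at 1.09 TPM with RARγi-2, so that no fold change is given. In Panc-1 it was at 2.16 TPM in the control and at 18.0 and 18.2 TPM with RARγi-1 and RARγi-2. The log2 fold changes there, 2.59 and 2.60, were the largest of any member, and 0.534% and 0.850% of expressed entries had a higher one. Since the control value is low, the fold depends on the added 1 TPM, and with none added the log2 fold changes were 3.06 and 3.08. ALDH1L1, the cytosolic counterpart, had the opposite distribution, at 1.04, 5.34 and 19.8 TPM in the PK-1 control, RARγi-1 and RARγi-2 libraries and never above the floor in Panc-1.

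**Figure D1:**
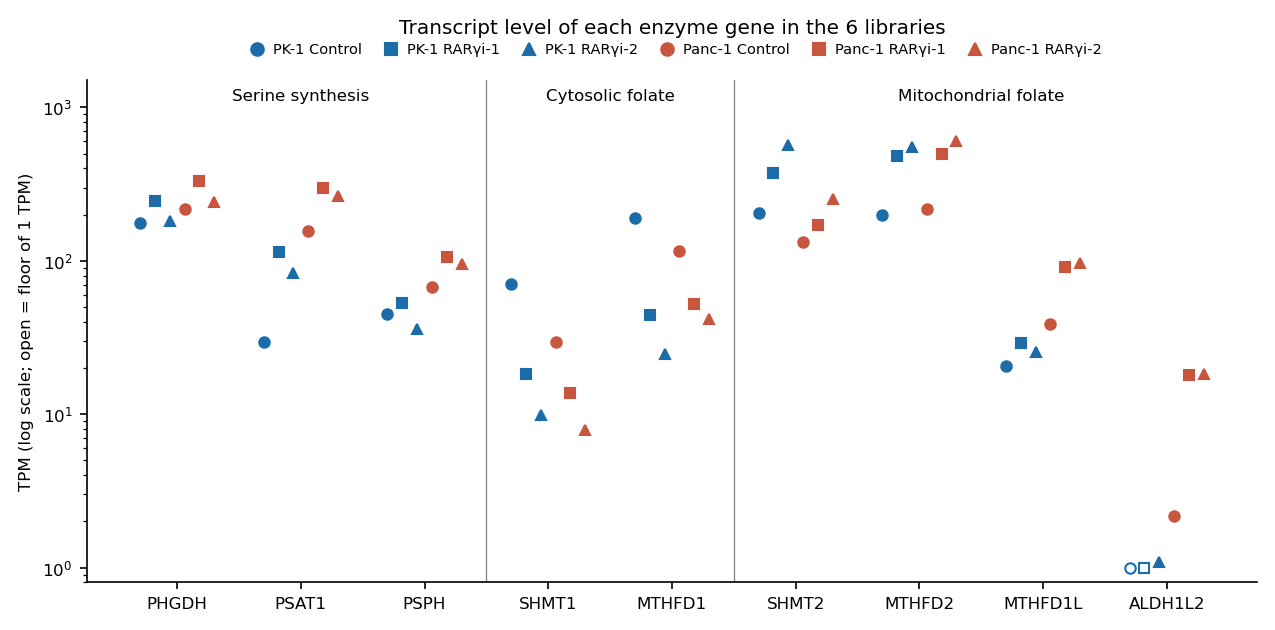
Levels of the 9 enzymes in the 6 libraries, grouped by pathway, with TPM on a log axis and 1 point per library, open where the value is at the floor. SHMT1 and MTHFD1 lie lower in the treated libraries than in the control of both lines, MTHFD2 and SHMT2 lie higher, and ALDH1L2 leaves the floor region in Panc-1 (18.0 and 18.2 TPM with treatment).

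The number of members past 2-fold was next set beside the share of all expressed entries past it, where expressed means at least 5 TPM in 1 or more libraries of the line. In PK-1 with RARγi-1, 2 members rose and 2 fell, against 10.7% and 5.67% of 11268 entries. With RARγi-2 in PK-1, 3 rose and 2 fell, against 13.9% and 14.6% of entries. In Panc-1, 3 rose and 2 fell with RARγi-1, against 8.58% and 7.11% of 11056 entries. The counts with RARγi-2 in Panc-1 were again 3 and 2, against 9.88% and 13% of entries. All the falls were of the 2 cytosolic enzymes. Across all 4 comparisons, MTHFD2 rose and SHMT1 and MTHFD1 fell each time, as did 3.29% and 2.64% of the 9912 entries expressed in both lines. Counting direction alone, 5 members were higher in all 4 (MTHFD2, PHGDH, PSAT1, SHMT2 and MTHFD1L), as were 33.2% of those entries, and PHGDH with RARγi-2 was within the spread in both lines.

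By group, the median log2 fold change of the cytosolic enzymes was -1.99 and -2.81 in PK-1 with RARγi-1 and RARγi-2, against -1.09 and -1.63 in Panc-1. The median of the mitochondrial enzymes was 0.67 and 0.87 in PK-1, against 1.20 and 1.39 in Panc-1. Without ALDH1L2, which is not expressed in PK-1, the PK-1 medians were 0.86 and 1.46. The serine synthesis genes had medians of 0.49, 0.05, 0.64 and 0.50 in the same order. The median over all expressed entries was 0.15, -0.01, 0.09 and -0.03. Among the members, the lowest value of an expressed mitochondrial enzyme lay above the highest cytosolic one in each comparison. The log2 distance was 2.36 and 3.03 in PK-1, against 1.43 and 2.39 in Panc-1. ALDH1L1, cytosolic but not a member, had log2 fold changes of 1.64 and 3.35 in PK-1. Both lay above those of every mitochondrial member there. Rescaling by the median of ratios shifted the log2 values of PK-1 with RARγi-1 by -0.141 and the remaining comparisons by -0.081 to 0.023, and no member crossed 2-fold.

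**Figure D2:**
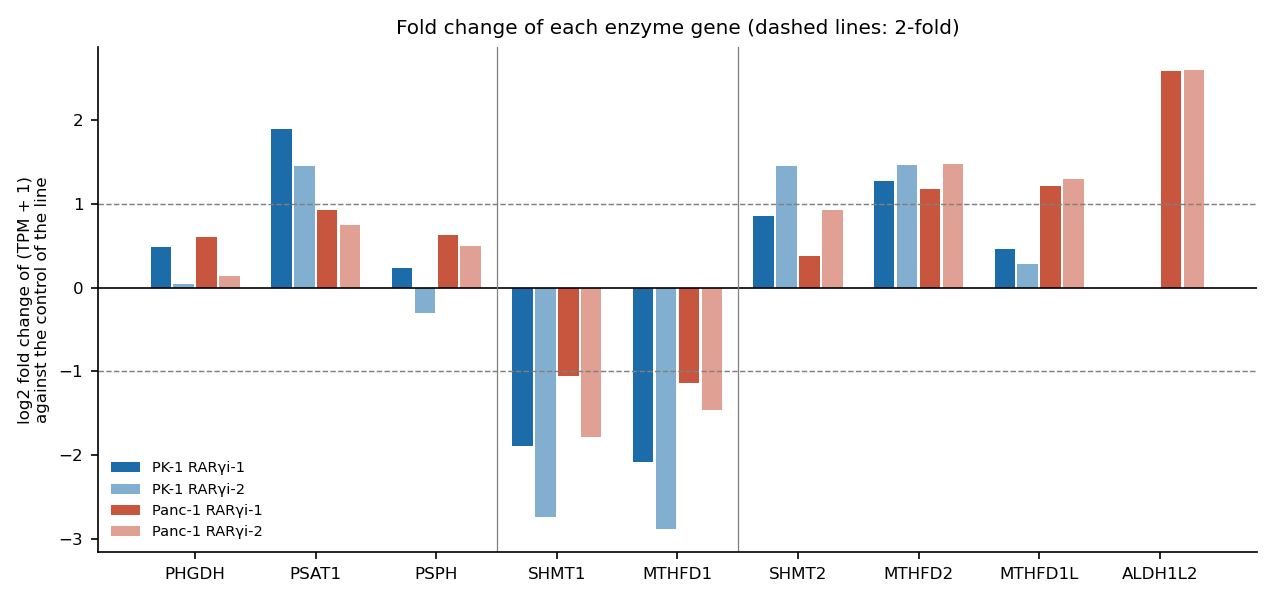
Log2 fold change of each enzyme against the control library of its line, 1 bar per comparison, with dashed lines at 2-fold; ALDH1L2 in PK-1 is left out because it is at or near the floor. Both cytosolic enzymes pass -1 in all 4 comparisons and MTHFD2 passes 1 in all 4.

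The ratio of mitochondrial to cytosolic transcript was then taken within each library, which removes any scaling between libraries. SHMT2 over SHMT1 was 2.89 in the PK-1 control, 20.3 with RARγi-1 and 57.7 with RARγi-2. In Panc-1 the ratio was 4.49, 12.5 and 32.2. It was thus several times higher in each treated library, and higher with RARγi-2 than with RARγi-1 in both lines. MTHFD2 over MTHFD1, which share the dehydrogenase and cyclohydrolase reactions, was 1.04, 11.0 and 22.2 in PK-1, against 1.86, 9.42 and 14.5 in Panc-1. The PK-1 control held nearly equal levels of both, and each treated library held mostly MTHFD2. MTHFD1L over MTHFD1, which share the ligase reaction, was 0.108, 0.655 and 1.02 in PK-1, against 0.331, 1.74 and 2.31 in Panc-1. MTHFD1L was the minor of the pair in both controls and in PK-1 with RARγi-1, level with MTHFD1 in PK-1 with RARγi-2, and the major one in both treated Panc-1 libraries. ALDH1L2 over ALDH1L1 went the other way in PK-1, at 0.965, 0.187 and 0.0551. In Panc-1 it was 2.16, 18.0 and 18.2, and in every library a gene of that pair was at or near the floor. A ratio within a library shows unequal change and not which side moved, for which the levels above are needed.

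**Figure D3:**
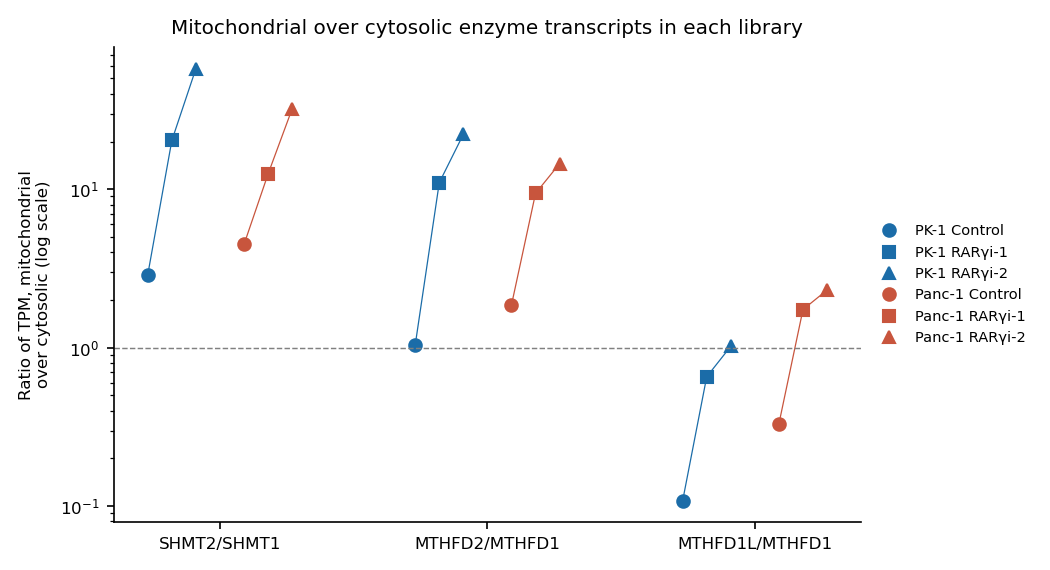
Ratio of mitochondrial to cytosolic TPM in each library for SHMT2 over SHMT1, MTHFD2 over MTHFD1 and MTHFD1L over MTHFD1, on a log axis, with 1 point per library; lines join the libraries of a cell line. All 3 ratios are lowest in the control of each line, and SHMT2 over SHMT1 reaches 57.7 in PK-1 with RARγi-2.

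Summed over the genes of a group, the cytosolic enzymes went from 261 TPM in the PK-1 control to 62.5 and 34.6 TPM in the RARγi-1 and RARγi-2 libraries. The mitochondrial enzymes went from 425 TPM to 887 and 1142 TPM. The mitochondrial share of that folate total was 62.0% in the PK-1 control and 93.4% and 97.1% in the treated libraries. In Panc-1 the cytosolic sum was 146, 66.2 and 49.5 TPM and the mitochondrial sum 390.0, 776 and 972 TPM. The mitochondrial share there was 72.8%, 92.1% and 95.2%. The serine synthesis sum was 250.3, 413 and 301 TPM in PK-1 and 441, 735 and 601 TPM in Panc-1, highest with RARγi-1 in both.

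The order of levels among the 9 genes differed between conditions. The spread compares each gene with itself in both treated libraries. Between genes of a library it is used only as a scale and does not measure error. In the PK-1 control SHMT2, MTHFD2, MTHFD1 and PHGDH led, and each differed from the next by less than the spread of the line. MTHFD1 was the third in that order, and it was the sixth with RARγi-1 and the seventh with RARγi-2, where its 24.8 TPM did not differ from the 25.4 TPM of MTHFD1L beyond the spread. With RARγi-2 in PK-1, SHMT2 and MTHFD2 led and did not differ from each other beyond the spread, and PHGDH followed at a log2 distance of 1.59. In the Panc-1 control MTHFD2 and PHGDH led with no gap beyond the spread, and PSAT1, SHMT2 and MTHFD1 followed as neighbours within it. MTHFD2 led both treated Panc-1 libraries, by 0.58 with RARγi-1 and by 1.19 with RARγi-2 over the next gene on the log2 scale. SHMT1 was the last in both treated Panc-1 libraries, below ALDH1L2.

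Between the untreated lines, PSAT1 was the most different member, higher in Panc-1 by 2.36 on the log2 scale. SHMT1 and MTHFD1 were lower in the Panc-1 control, with log2 differences of -1.24 and -0.70. SHMT2 was lower there too, with -0.63. MTHFD1L was higher there by 0.87, and MTHFD2 differed by only 0.13.

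The antagonists are set side by side by the log2 difference of the RARγi-2 library from the RARγi-1 library, PK-1 first, as values only because the doses are not known. For SHMT1 it was -0.84 and -0.74, and for MTHFD1 -0.81 and -0.33. The differences of SHMT2 were 0.60 and 0.55, and those of MTHFD2 0.19 and 0.29. For PHGDH they were -0.44 and -0.46, for PSAT1 -0.44 and -0.17, for PSPH -0.55 and -0.13, and for MTHFD1L -0.18 and 0.08. The spread comes from these same differences over all expressed entries, so a value past it lies outside their middle and shows no more. SHMT1 and SHMT2 passed the spread in both lines, also when rescaled by the median of ratios. PHGDH and MTHFD1 passed it in both lines as deposited, but rescaling brought PHGDH in PK-1 to -0.28 and MTHFD1 in Panc-1 to -0.23, within the spread.

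Outside the 9 members, other genes around the pathway were taken from fixed lists. Thymidylate synthase (TYMS), which consumes methylene-tetrahydrofolate, was at 231, 23.7 and 7.21 TPM in PK-1 and at 397, 68.0 and 46.6 TPM in Panc-1. It fell more than 2-fold in all 4 comparisons, as SHMT1 and MTHFD1 did and as 2.64% of the 9912 entries expressed in both lines did. TYMS was the 1 gene of 7 on its list, other folate interconversion, to do so. The medians of that list ran from -0.32 to 0.02. MTHFD2L, a paralogue of MTHFD2, stayed between 1.49 and 3.11 TPM in all 6 libraries, far under MTHFD2.

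Among the carriers, SFXN1, a mitochondrial serine transporter, had log2 fold changes of -0.69 and -1.39 in PK-1, against -0.41 and -0.69 in Panc-1, lower in all 4 while SHMT2 was higher. SLC25A32, a mitochondrial folate carrier, was at 43.2, 29.0 and 28.2 TPM in PK-1 and at 20.6, 22.2 and 27.5 TPM in Panc-1. AMT, a subunit of the glycine cleavage system, was at the floor in the PK-1 control and at 3.43 and 3.17 TPM in the treated libraries, so that its log2 fold changes there, 1.15 and 1.06, are lower limits. In Panc-1 AMT was at 1.63, 8.24 and 7.15 TPM and passed 2-fold with both antagonists. GLDC, the decarboxylase of that system, was at the floor in all 3 PK-1 libraries and at 5.67, 6.09 and 3.79 TPM in Panc-1. AMT was the 1 gene of 8 for glycine cleavage and mitochondrial transport to pass 2-fold in 1 direction in all 4 comparisons, and the list medians ran from -0.40 to 0.01. Of the 9912 entries expressed in both lines, 3.29% rose past 2-fold in all 4. AMT stayed under 5 TPM in PK-1 and is not one of them.

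CTH, which makes cysteine from cystathionine, rose in every comparison, at 6.64, 51.4 and 71.8 TPM in PK-1, against 4.01, 40.9 and 37.7 TPM in Panc-1. CBS, which joins serine to homocysteine in the step before, rose in PK-1, where it was at 4.92, 18.4 and 18.0 TPM. In Panc-1 CBS was at 26.3, 52.2 and 53.5 TPM, with log2 fold changes of 0.96 and 0.998 that did not pass 2-fold. The second lay just under 2-fold and would pass it with no TPM added. CTH was the 1 gene of 8 in the methionine cycle and transsulfuration past 2-fold in all 4, and the medians of that list ran from -0.76 to 0.06. Of the 9912 entries, 3.29% rose past 2-fold in all 4. The 6 purine synthesis genes, whose pathway takes up formyl-tetrahydrofolate, had medians of -0.77 and -1.49 in PK-1, against -0.20 and -0.45 in Panc-1. None of the 6 passed 2-fold in all 4 comparisons, and 4 of 6 were lower in all 4, as were 26.6% of the 9912 entries. As mitochondrial genes of another pathway, 16 citric acid cycle genes had medians between -0.53 and -0.35. In no comparison did any of the 16 rise more than 2-fold, against 1 to 3 of the 4 mitochondrial folate enzymes. Over all expressed entries the share that did was 8.58% to 13.9%, and the contrast was not tested. The 3 in Panc-1 include ALDH1L2, which was at 2.16 TPM in the control.

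ATF4 was at 472, 1138 and 1394 TPM in PK-1 and at 312, 618 and 821 TPM in Panc-1. Its log2 fold change was 1.27 and 1.56 in PK-1, against 0.99 and 1.40 in Panc-1, past 2-fold in 3 of 4. MYC and NFE2L2, which also regulate serine synthesis genes, did not pass 2-fold in any comparison. ASNS, TRIB3, CHAC1, SESN2 and PCK2, known ATF4 targets outside the pathway, all rose more than 2-fold in all 4 comparisons. So did 3.29% of the 9912 entries expressed in both lines. The 5 targets had medians of 2.44, 3.14, 2.61 and 2.79 on the log2 scale. In both PK-1 comparisons those medians lay above every member's value, and in Panc-1 they lay close to the 2.59 and 2.60 of ALDH1L2. These lists and the members were chosen with results of these libraries known, so that their direction is no independent evidence.

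**Figure D4:**
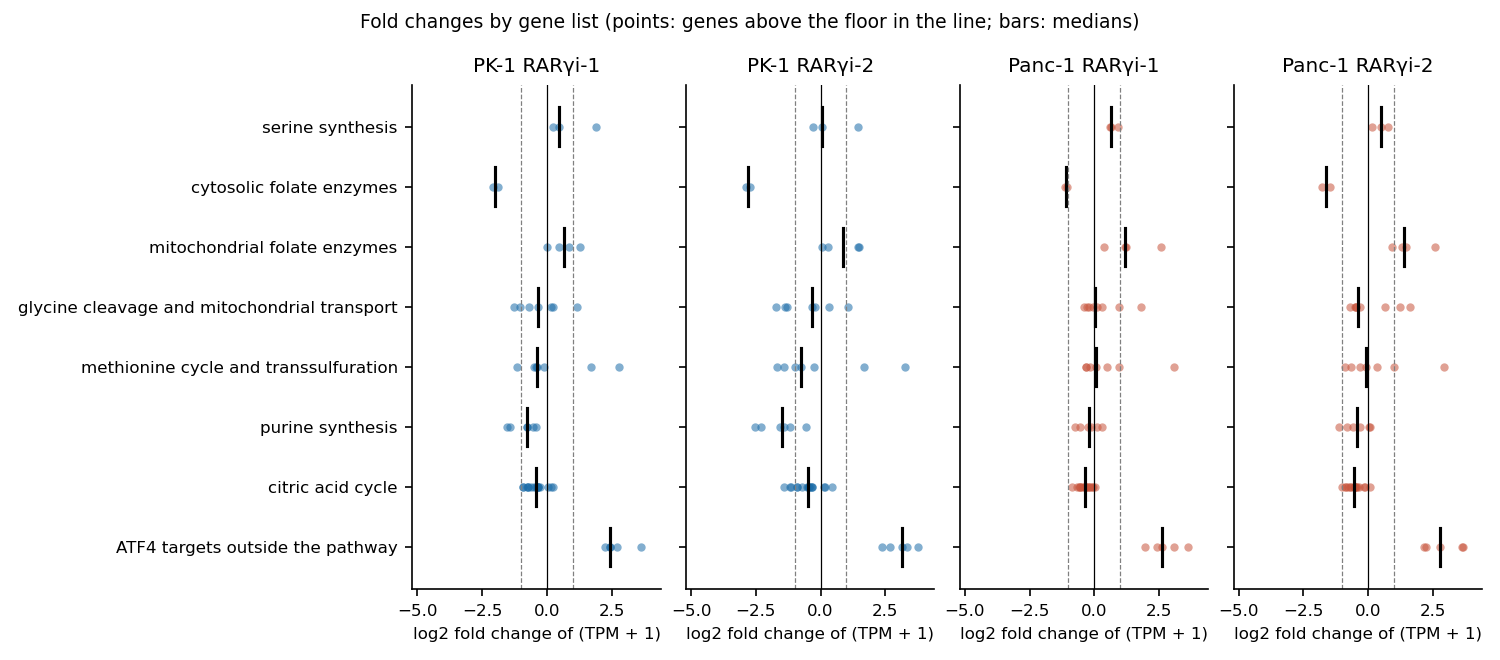
Log2 fold changes of the genes of 8 lists in the 4 comparisons, 1 point per gene, with black bars at the list medians and dashed lines at 2-fold. The cytosolic enzymes lie under -1 throughout, the ATF4 targets above 1, and the citric acid cycle genes have medians from -0.53 to -0.35.

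The entries most like MTHFD2 and MTHFD1, the members with the highest and the lowest mean with 1 TPM added, were found by Euclidean distance over the 4 log2 fold changes, among 10628 symbols with at least 10 TPM in 1 or more libraries. With a pseudocount of 0.1 those places went to ALDH1L2 (mean 1.53) and SHMT1 (-1.95, against -1.92 for MTHFD1), and likewise with none. Nearest to MTHFD2 were P4HA2, a collagen prolyl hydroxylase subunit (distance 0.191), ACVR1, an activin receptor (0.208), and SEC23B, a coat protein of vesicles leaving the endoplasmic reticulum (0.214). Nearest to MTHFD1 were CENPM, a centromere protein (0.164), NDC1, a nucleoporin (0.234), and MCM5, a subunit of the replicative helicase (0.277). MCM5, for example, was at 158, 37.8 and 22.9 TPM in PK-1 and at 147, 57.1 and 54.8 TPM in Panc-1.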

How the data were processed

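RNA of the 6 libraries was sequenced by the authors from a stranded mRNA kit. Per the submitters' processing notes the genome build was hg38; aligner, counter and annotation were not given in the sources used here. The authors deposited log2 TPM per gene, with lower values raised to 1 TPM, so a change below that level cannot be seen and a fold from it is a lower limit. Here values were turned back to TPM, joined by Entrez identifier and symbol, and compared as log2((TPM + 1)/(TPM + 1)) with the control of the line, in Python 3.11.15 with pandas 2.3.3, numpy 2.4.6 and matplotlib 3.10.9. The spread is 1.4826 times the median absolute deviation over entries with at least 5 TPM in 1 or more libraries of the line. The calculation was tested on simulated data with large changes at levels well above the floor. That check does not cover calls near 2-fold or genes near the floor. Named genes were the 9 members, the list genes past 2-fold in all 4 comparisons, further pathway genes, and the 3 nearest entries to the highest and the lowest member. Markers, RARG and regulators are given beside them. Some listed genes are not reported here. The members and lists were chosen with earlier results of these data known. Alternatives were other pseudocounts, scalings, filters and fold thresholds. Promoter sequence was RefSeq GRCh38.p14, the 250 bases before each start. A planned comparison of protein sequences was not made. TPM keeps no depth, so the precision of a single value is unknown.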

Additional observations from a re-analysis of the deposited data

Results flagged for a closer look

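None of the 9 members had both libraries of one line moving one way and both of the other line moving the opposite way. Of the listed genes around them, 8 did by sign alone, and none of these differences was tested. The share of all expressed entries with such signs was not counted. Each of the 8 had a log2 fold change within the spread of its line, and those of IDH3G, from -0.15 to 0.11, were all within it. The differences given are the PK-1 mean minus the Panc-1 mean of the log2 fold changes. SFXN2, a sideroflexin of the mitochondrial membrane, had the widest difference at -1.75, with -1.26 and -1.29 in PK-1, against 0.29 and 0.65 in Panc-1. SLC25A32 differed by -0.83, MTRR, which reactivates methionine synthase, by -0.99, and GART and ADSL of purine synthesis by -0.97 and -0.65. In the other direction, OGDH of the citric acid cycle differed by 0.91, MTHFS by 0.36 and IDH3G by 0.23.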

How the results depend on the processing

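No member crossed 2-fold with a pseudocount of 0.1 or none or with median-of-ratios scaling. Group medians moved by less than the spread under these, as did SHMT2 over SHMT1, MTHFD2 over MTHFD1 and MTHFD1L over MTHFD1. Adding up the entries of a symbol could change no value, because each of the 9 members had 1 entry. Only ALDH1L2 in Panc-1 moved further, to 3.00 and 3.02 with a pseudocount of 0.1. The counts depend on the fold used. At 1.5-fold, 6 members rose in Panc-1 with RARγi-1 and 5 with RARγi-2. At 3-fold, 1 rose and 0 fell in Panc-1 with RARγi-1, 1 rose and 1 fell with RARγi-2, and in PK-1 1 rose with RARγi-1 and 0 with RARγi-2. Leaving out members under 5 TPM moved the mitochondrial median of PK-1 with RARγi-2 from 0.87 to 1.46, since ALDH1L2 drops out. No direction reversed. No paired analysis was possible because each condition of a line has 1 library. A fit with the lines as blocks, which would take the lines as replicates, was not run. With no replicates, no library could be left out, and TPM gives no depth from which to set limits for low genes such as ALDH1L2, AMT and GLDC.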
